A study of Mus musculus with 14 samples.

Results

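The transcripts of the CCR4-NOT deadenylase and of its oocyte adaptor Btg4 were followed in mouse oocytes that gained tagged human AGO2 through Zp3-Cre, with and without a microRNA mimic. The members were the 9 genes Cnot1, Cnot2, Cnot3, Cnot6, Cnot6l, Cnot7, Cnot8, Btg4 and Zfp36l2, and a probe was taken when the platform's gene symbol was one of them. This gave 16 of the 25697 probes, for 7 of the 9 genes; the series names 16593 genes by a probe with 1 symbol. They were 6 probes for Cnot2, 3 for Cnot3, 2 each for Cnot6l and Cnot7, and 1 each for Cnot6, Cnot8 and Btg4. Cnot1 and Zfp36l2 were not analysed here. Probes of the same gene share its transcripts and are not replicates.

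All 14 samples were total RNA from oocytes at the germinal vesicle (GV) stage, the fully grown oocyte arrested in prophase of meiosis I. They were hybridised to Illumina mouse BeadChips, which report each transcript by fluorescence at short probes. All oocytes were injected, and what those without miR received is not stated. Oocytes of all 4 groups carried myc- and GFP-tagged human Ago2 at Rosa26 behind a loxP-flanked stop. The group Cre_neg (n = 4) lacked Zp3-Cre and the group Cre_pos (n = 4) carried it, both without miR. The groups miR15_Cre_neg and miR15_Cre_pos (n = 3 each) were the corresponding oocytes injected with 2 µM miR-15a mimic. Donor mice had received 5 units of PMSG, a gonadotropin that makes follicles grow, 48 h before injection, and oocytes were kept overnight in medium with 2 µM milrinone, which holds them at the GV stage. The Zp3 promoter is active in growing oocytes, so Cre acts there. Since the transgene was present in each group, Cre and AGO2 effects cannot be told apart. The labels name no animals or pools, and p-values measure only the spread between these samples, which may be technical.

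CCR4-NOT is the main cytoplasmic deadenylase: it shortens the poly(A) tail, the step that usually starts the decay of an mRNA. CNOT1 is its scaffold, CNOT2 and CNOT3 form the NOT module on it, and the tails are cut by nucleases of a Ccr4 type (CNOT6 or CNOT6L) and a Caf1 type (CNOT7 or CNOT8). An Argonaute protein loaded with a microRNA reaches the complex through GW182 proteins, which makes the complex the effector of microRNA-driven decay. In the mouse oocyte, BTG4 binds the Caf1-type nuclease and is needed for the clearance of maternal mRNA during maturation, and ZFP36L2 binds AU-rich elements and brings the complex to its targets.

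The mature miR-15a sequence and that of miR-15b and miR-16 are shown because the injected mimic is named for miR-15a, whose seed these 3 microRNAs share. Each is written 5′ to 3′ with the seed, bases 2 to 8, in capitals. The sequences are those of RefSeq on GRCm38.p6, where mature miR-15a lies on the minus strand at chr14:61632075-61632096; the labels do not give the sequence of the mimic itself.
miR-15a: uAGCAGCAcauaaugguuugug
miR-15b: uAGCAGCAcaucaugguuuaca
miR-16: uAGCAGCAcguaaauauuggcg

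Each set, without and with mimic, has its own signal table, so mimic and table cannot be told apart, and levels are read within a table only. Mean raw signal per array was 118 to 151 intensity units without mimic and 339 to 380 with mimic, and between 11652 and 13715 probes were detected per array (detection p under 0.05). Cre_pos replicate 4 scored 28.2 on principal component 1, where the other arrays of the set scored -7.57 to 2.72, and Cre_pos replicate 1 had the 11652 detected probes. Of the defining markers, 11 of 11 oocyte genes with a probe passed the detection filter in each set. Of the granulosa and cumulus markers 2 of 12 passed without mimic (Fshr and Nr5a2) and 4 of 12 with mimic (Fshr, Has2, Inhba and Nr5a2). Amh, Foxl2 and Inha were among those that passed in neither set. Of theca and stroma markers 2 of 8 passed without and 1 of 8 with mimic, and of blood and immune markers 1 of 6 in each set. The summed linear signal of the granulosa markers was 306 to 324 in Cre_neg and 324 to 369 in Cre_pos, and 624 to 667 and 663 to 707 with mimic. Its part in the results was not tested. The Cre labels were checked on Ago2, whose log2 signal lay 1.97 ± 0.113 (SE) higher in Cre_pos than in Cre_neg and 2.35 ± 0.115 higher with mimic (limma adjusted p = 9.94e-09 and 0.000344), with no overlap of the groups in either set.

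All 16 probes, and so the 7 genes, were detected on each of the 14 arrays, whereas 40.8% of all probes, and 41.1% of those with 1 gene symbol, were. The lowest value of a member was a log2 signal of 4.70 without mimic, against floors of 4.35 to 4.53, the lowest detected signal of each array. With mimic it was 6.17, against floors of 4.97 to 5.07. The NOT module, both nuclease types and Btg4 were therefore measured as transcripts in GV oocytes of all 4 groups. In bulk RNA, a change of a transcript in every oocyte cannot be told from a change in the share of oocytes that carry it. The plot of the 16 probes on every array shows each value relative to the Cre-negative mean of its set.

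**Figure D1:**
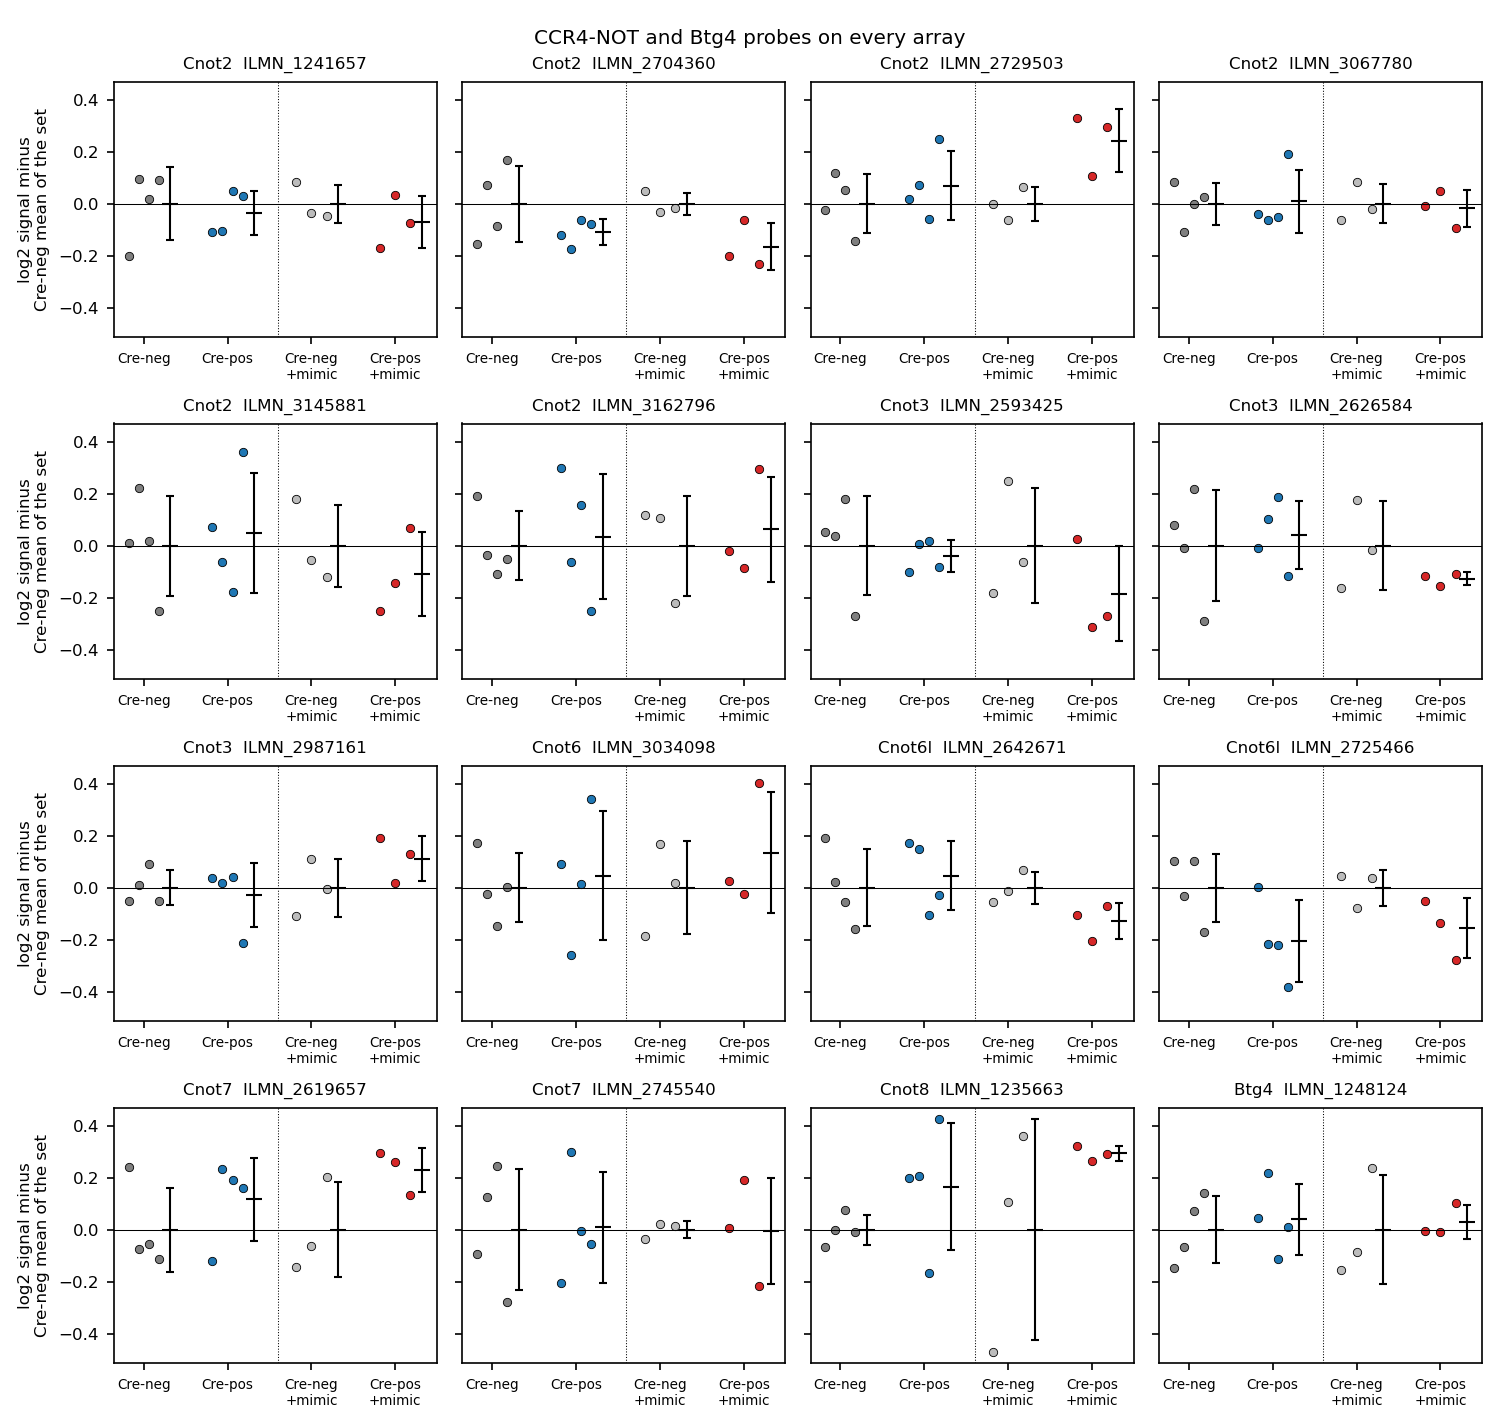
Log2 signal of the 16 CCR4-NOT and Btg4 probes on every array (points), minus the Cre-negative mean of the same set, with group mean and SD (bars; n = 4 without mimic left of the dotted line, n = 3 with mimic right of it). Groups overlap in every panel without mimic, and with mimic the groups of Cnot2 ILMN_2704360, Cnot2 ILMN_2729503 and Cnot6l ILMN_2642671 do not overlap.

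The first comparison asks whether Cre, with the AGO2 it switches on, altered the level of the deadenylase transcripts in oocytes without mimic. None of the 16 probes passed (limma, smallest adjusted p = 0.956), while 5 of 13080 tested probes did, 0.0382% (0.0153% higher and 0.0229% lower). Their log2 differences, Cre_pos minus Cre_neg, ran from -0.20 to 0.17 with a median of 0.038, and the median of all tested probes was -0.0029. Of the 16, 11 lay above 0 and 5 below, where 48.8% of all tested probes lay above, but with arrays scaled by their median only 2 lay above and 14 below, where 30.2% of all tested probes lay above. In no member did the groups separate, while they did in 375 of the tested probes, 2.87% (1.15% higher and 1.71% lower). At an unadjusted p under 0.05 the count was 0 of 16 (4.76% of all tested probes). Every 95% interval of a member held 0, and together the intervals spanned 0.737- to 1.34-fold, so a change beyond that range lay outside the interval of each probe.

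With miR-15a mimic in both groups, the same comparison asks whether Cre, with the AGO2 it switches on, altered the level of these transcripts. Again none of the 16 probes passed (limma, smallest adjusted p = 0.664), against 16 of 13563 tested probes, 0.118% (0.0147% higher and 0.103% lower). Log2 differences ran from -0.19 to 0.29, with a median of -0.012 against 0.00017 for all tested probes. Above 0 lay 7 and below 0 lay 9 (50% of tested probes lay above). The groups separated in 3 of 16 probes, 1 higher and 2 lower, where 12.7% of all tested probes separated (6.28% higher and 6.46% lower). An unadjusted p under 0.05 was reached by 1 of 16, where 7.35% of all tested probes reached it. The 95% intervals together spanned 0.696- to 1.68-fold.

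**Figure D2:**
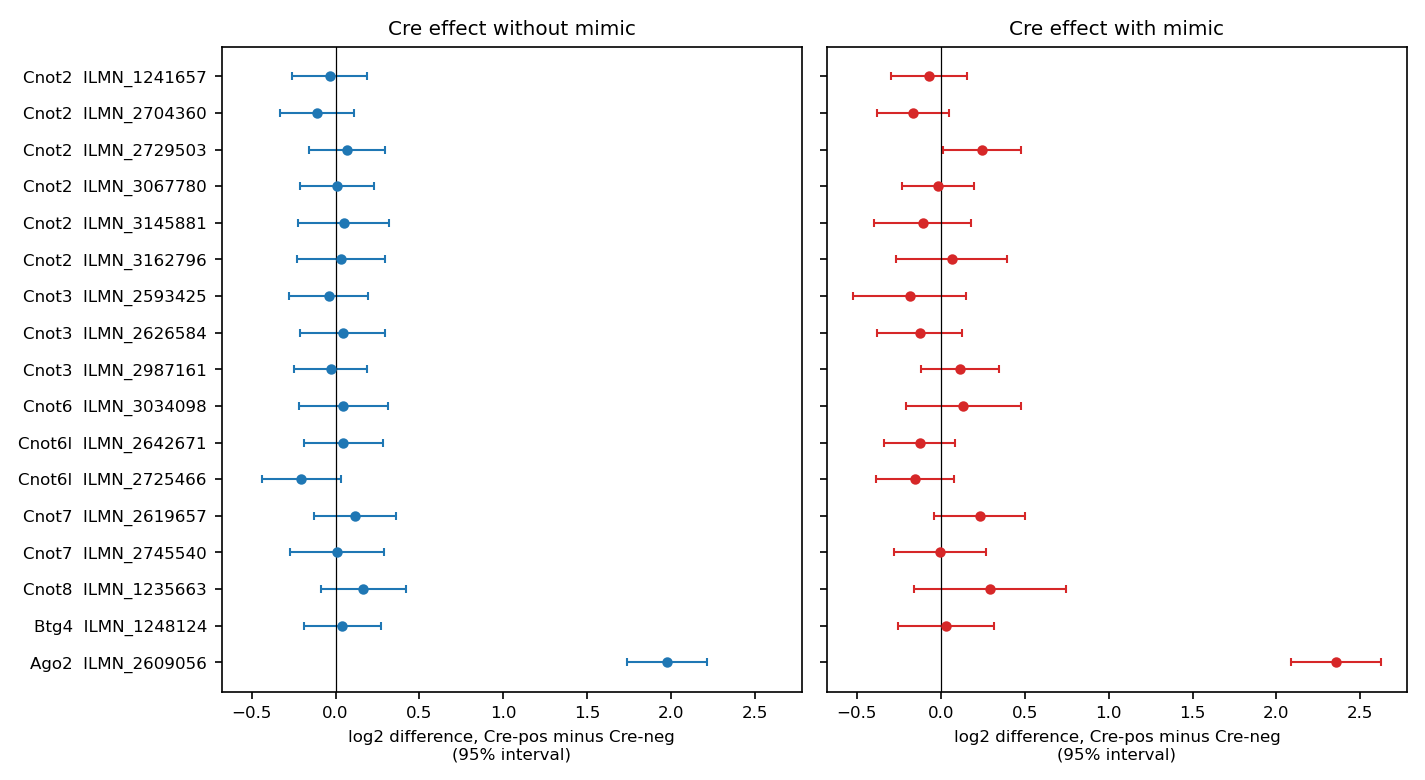
Log2 difference of Cre-positive minus Cre-negative oocytes for the 16 member probes and for Ago2, with 95% intervals from limma, without mimic (left, n = 4 and 4) and with mimic (right, n = 3 and 3). The member probes lie between -0.20 and 0.29, and Ago2 lies at 1.97 and 2.35.

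Btg4, the adaptor that links the Caf1-type nuclease to maternal transcripts, gave a strong signal on its 1 probe (ILMN_1248124). Its log2 signal was 8.77, 8.85, 8.99 and 9.06 in Cre_neg and 8.96, 9.13, 8.80 and 8.93 in Cre_pos. The 8 arrays were interleaved, and the raw intensities were 516 to 617 and 418 to 652. The difference was 0.041 ± 0.110 (SE; 1.03-fold, 95% interval 0.876 to 1.21; limma adjusted p = 0.981). With mimic Btg4 stood at 10.57, 10.64 and 10.96 in miR15_Cre_neg and at 10.72, 10.71 and 10.83 in miR15_Cre_pos. Here too the groups overlapped, with the highest and the lowest values both in Cre-negative oocytes. The difference was 0.030 ± 0.123 (1.02-fold, 95% interval 0.838 to 1.24; limma adjusted p = 0.972).

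Among other probes, those whose pattern over the 14 arrays was most like that of Btg4, after each probe's mean in its own set was subtracted, belonged to Elf1, an ETS transcription factor (Pearson r = 0.810, Spearman rho = 0.820), to the zinc finger gene Zfp94 (0.775 and 0.793) and to Zfand2b (0.759 and 0.719). They were the highest r of 12484 probes, and the arrays share their set's normalization, so this is a description. Of the members, the Caf1-type gene Cnot8 had the highest r to Btg4, 0.614 (rho = 0.648). How many of all probes reach this r was not counted. With mimic, miR15_Cre_neg replicate 1 gave the lowest log2 signal of both genes, 6.66 for Cnot8 and 10.57 for Btg4. The other Caf1-type gene, Cnot7, stood at 0.162 and 0.083 by its probes. The remaining members lay between -0.404 and 0.174.

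Cnot6l encodes the Ccr4-type nuclease that is prominent in mouse oocytes. By probe ILMN_2725466 its log2 signal was 9.95, 9.81, 9.95 and 9.67 in Cre_neg and 9.85, 9.63, 9.62 and 9.46 in Cre_pos. The Cre_pos values reached lower, but replicate 1 of Cre_pos lay among the Cre_neg values and replicate 4 of Cre_neg among those of Cre_pos. The difference of -0.20 ± 0.112 (0.868-fold, 95% interval 0.737 to 1.02) was the most negative of the 16 and did not pass (limma adjusted p = 0.956). Leaving out single arrays gave -0.27 (without Cre_pos replicate 1) to -0.15 (without Cre_pos replicate 4). With mimic the probe gave 12.06, 11.94 and 12.05 against 11.97, 11.88 and 11.74, groups that overlapped. That difference was -0.15 ± 0.0993 (0.898-fold, 95% interval 0.766 to 1.05; limma adjusted p = 0.797).

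The second Cnot6l probe, ILMN_2642671, is assigned to another transcript record of the gene. Without mimic it gave 8.59, 8.42, 8.34 and 8.24 in Cre_neg and 8.57, 8.55, 8.29 and 8.37 in Cre_pos, a difference of 0.047 ± 0.112 on the other side of 0 from the first probe. With mimic its values were 10.40, 10.44 and 10.52 in miR15_Cre_neg and 10.35, 10.25 and 10.38 in miR15_Cre_pos. Each Cre-positive array lay below each Cre-negative one, by a margin smaller than the spread within either group. The difference was -0.13 ± 0.0907 (0.916-fold, 95% interval 0.792 to 1.06) and did not pass (limma adjusted p = 0.812).

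Cnot6, the other Ccr4-type nuclease gene, was near the floor without mimic. Its probe gave 5.14, 4.94, 4.82 and 4.97 in Cre_neg and 5.06, 4.70, 4.98 and 5.31 in Cre_pos. The Cre_pos arrays held both the lowest and the highest value. The differences were 0.046 ± 0.126 without and 0.13 ± 0.147 with mimic (limma adjusted p = 0.981 and 0.883).

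Of the Caf1-type nuclease genes, Cnot7 was read by 2 probes. ILMN_2745540 gave 8.70, 8.92, 9.04 and 8.52 in Cre_neg and 8.59, 9.10, 8.79 and 8.74 in Cre_pos, and the groups covered nearly the same range. The difference was 0.0088 ± 0.132 without mimic, and with mimic it was -0.0051 ± 0.119 (limma adjusted p = 0.999 and 0.995). The dimmer probe ILMN_2619657 stood at 0.12 ± 0.116 without and 0.23 ± 0.117 with mimic. In the second set its 3 Cre-positive arrays, at 8.01, 7.98 and 7.85, exceeded 2 of the 3 Cre-negative arrays, at 7.58 and 7.66, and the third Cre-negative array, at 7.92, lay among them (limma adjusted p = 0.751).

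Cnot8 had the most positive difference of the members in each set. Without mimic its log2 signal was 5.69, 5.75, 5.83 and 5.75 in Cre_neg and 5.95, 5.96, 5.59 and 6.18 in Cre_pos. Of the Cre_pos arrays 3 lay above all Cre_neg arrays and replicate 3 lay below all of them. The difference was 0.17 ± 0.120 (1.12-fold, 95% interval 0.941 to 1.34; limma adjusted p = 0.956). With mimic it was 0.29 ± 0.195 (1.23-fold, 95% interval 0.896 to 1.68; limma adjusted p = 0.797), from 6.66, 7.24 and 7.49 in miR15_Cre_neg and 7.45, 7.40 and 7.42 in miR15_Cre_pos. One array carried most of this: without miR15_Cre_neg replicate 1, which held the 6.66, the difference was 0.059.

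The NOT module gene Cnot2 was read by 6 probes, assigned to 3 transcript records. Probe ILMN_3162796 was near the floor without mimic, with mean log2 signals of 4.98 in Cre_neg and 5.02 in Cre_pos. Without mimic the differences of the 6 probes lay between -0.11 and 0.070, with standard errors of 0.104 to 0.130. With mimic they lay between -0.17 and 0.24, and 2 of them separated the groups in opposite directions. ILMN_2704360 gave 9.85, 9.77 and 9.79 in miR15_Cre_neg and 9.60, 9.74 and 9.57 in miR15_Cre_pos, a difference of -0.17 ± 0.0919 (limma adjusted p = 0.773). ILMN_2729503 gave 8.14, 8.08 and 8.21 against 8.47, 8.25 and 8.44, a difference of 0.24 ± 0.0999 (1.18-fold, 95% interval 1.01 to 1.39; unadjusted p = 0.0417, limma adjusted p = 0.664). Neither passed, and no direction can be given for Cnot2 as a gene. Both probes are assigned to the same transcript record.

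The opposite directions of these probes were seen in the set with mimic, so their difference within each array was tested in the other set, which shares no array with it. ILMN_2729503 minus ILMN_2704360 was -1.79 ± 0.213 (SD, n = 4) in Cre_neg and -1.61 ± 0.140 (SD, n = 4) in Cre_pos. The difference of 0.18 had the same sign as with mimic, but the groups overlapped (exact permutation p = 0.229, two-sided, where 4 against 4 can reach 0.0286). With mimic the contrast was -1.66 ± 0.0707 (SD, n = 3) against -1.25 ± 0.208 (SD, n = 3), a difference of 0.41 given as a description because the pair was chosen there.

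**Figure D3:**
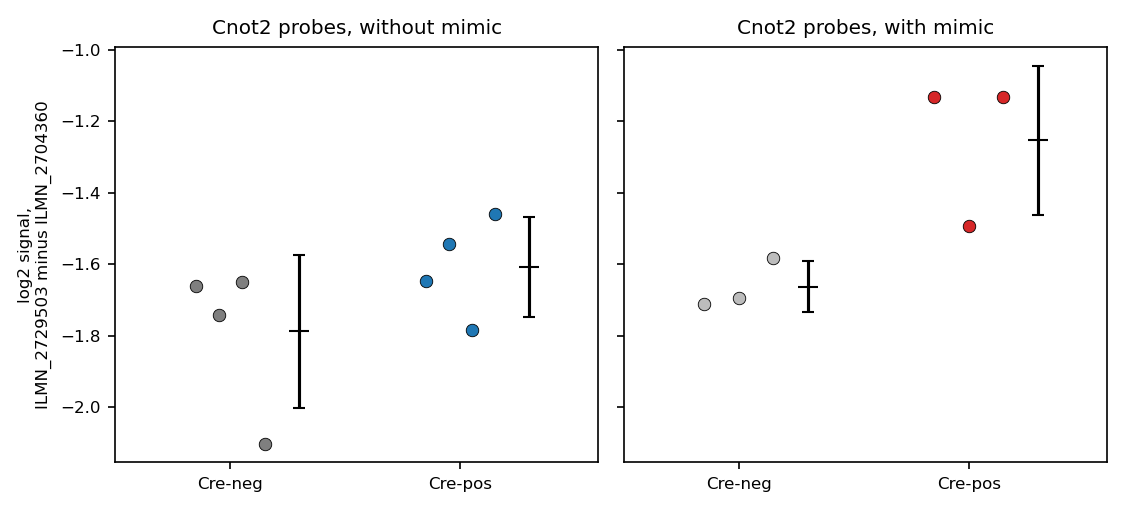
Log2 signal of Cnot2 probe ILMN_2729503 minus that of Cnot2 probe ILMN_2704360 on each array (points), with group mean and SD (bars), without mimic (left, n = 4 and 4) and with mimic (right, n = 3 and 3). Cre-positive and Cre-negative arrays overlap on the left (difference 0.18) and do not on the right (0.41), where the pair was chosen.

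Cnot3, the other NOT module gene, had 3 probes. Without mimic their differences were -0.040 ± 0.112, 0.042 ± 0.120 and -0.029 ± 0.104. For the last of these, ILMN_2987161, the Cre_neg arrays gave 6.33, 6.39, 6.47 and 6.33 and the Cre_pos arrays 6.42, 6.40, 6.42 and 6.16, so Cre_pos replicate 4 alone lay below the rest. Without that array the difference was 0.033. With mimic the 3 probes stood at -0.19 ± 0.145, -0.13 ± 0.109 and 0.11 ± 0.101, on both sides of 0, and the groups of each overlapped (limma adjusted p = 0.830, 0.855 and 0.859).

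**Figure D4:**
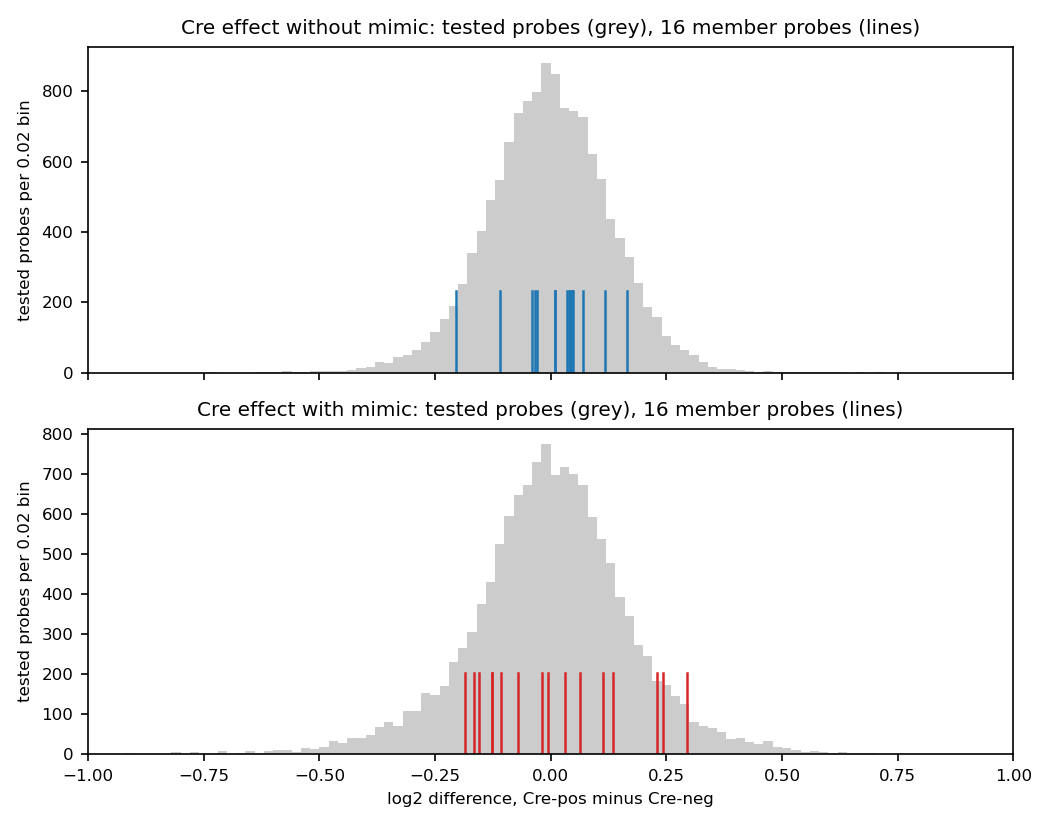
Log2 differences of Cre-positive minus Cre-negative oocytes for all tested probes (grey, bins of 0.02) and for the 16 member probes (coloured lines), without mimic (top, 13080 probes) and with mimic (bottom, 13563 probes); 5 and 18 probes lie beyond the axis. The members' medians are 0.038 and -0.012, against -0.0029 and 0.00017 for all tested probes.

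The members differed in how far replicates lay apart. Their pooled within-group SD was 0.100 to 0.223 without mimic and 0.0658 to 0.302 with mimic, where the medians of all tested probes were 0.162 and 0.1498, and 6 of the 16 exceeded that median in each set. Cnot8 was the most variable member with mimic, at 0.302. The steadiest were Cnot3 ILMN_2987161 without and Cnot6l ILMN_2642671 with mimic.

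A contrast of the 2 Cre effects, each taken inside its own table, asked whether these transcripts responded to Cre in another way with the mimic. None of the 16 probes passed, nor did any of 12484 tested (0%; limma, smallest adjusted p of a member 0.9999). At an unadjusted p under 0.05 there were 0 members, where 4.67% of all tested probes had one. The differences of the effects lay between -0.17 for Cnot6l ILMN_2642671 and 0.17 for Cnot2 ILMN_2729503, with a median of -0.012, and 7 of 16 lay above 0 (49.9% of all tested), or 12 of 16 with median scaling (62.3% of all tested). For Btg4 it was -0.010 ± 0.164 (95% interval -0.35 to 0.33). The Cre effects had the same sign in both sets for 10 of the 16 probes, 6 above and 4 below 0, or 2 above and 8 below with median scaling. With quantile normalization, 27.3% of all probes tested in both sets were above 0 in both and 28.4% below, and 55.7% had the same sign. With median scaling, 30.2% of all tested probes lay above 0 without mimic and 45.6% with mimic. The share below 0 in both sets was not counted for that scaling, so the 8 members below cannot be set against 28.4%.

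The wider pathway was read from 48 genes that act with or beside the complex, of which 40 had a probe and 38 were tested in each set. None of their 60 tested probes passed without mimic (limma, smallest adjusted p = 0.956) and none of 59 with mimic (0.598). Their log2 differences ran from -0.18 to 0.31 without mimic (median 0.028) and from -0.36 to 0.39 with mimic (median -0.0094). Before adjustment, 1 of 60 and 1 of 59 had a p under 0.05, as did 4.76% and 7.35% of all tested probes. With mimic 5 of 59 separated higher and 4 lower (6.28% and 6.46% of all tested probes), and none did without mimic (1.15% and 1.71%).

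Among the other subunits and cofactors, Cnot4, which encodes a RING-finger ubiquitin ligase, had 3 probes at -0.089, 0.31 and 0.13 without mimic. The probe at 0.31 ± 0.137, ILMN_2738972, had an unadjusted p of 0.0375 and did not pass (limma adjusted p = 0.956). It stood at 0.15 ± 0.0892 with mimic (limma adjusted p = 0.777). Cnot9, which links the complex to GW182 proteins, stood at -0.055 and 0.0054, and Cnot10 at -0.13 and 0.13. Cnot11 was near the limit of detection: ILMN_2890284 was detected on 7 of 8 arrays without mimic and on 0 of 6 with mimic, and ILMN_2616638 on 1 of 8 and 3 of 6.

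Of the BTG and TOB relatives of Btg4, which bind the same Caf1-type nucleases, none of 9 and 8 tested probes passed. Tob1 stood at 0.076 without and -0.0084 with mimic and Tob2 at 0.011 and -0.050. A Btg1 probe, ILMN_2745073, singled out after its values were seen, stood at -0.096 without and 0.39 ± 0.142 with mimic (unadjusted p = 0.0247, limma adjusted p = 0.598). It was the highest of the pathway probes with mimic. The lowest, also picked by its value, was Ddx6 ILMN_2758969 at -0.36 ± 0.179 (limma adjusted p = 0.744). The other 3 Btg1 probes lay between -0.17 and 0.027 with mimic. Of the deadenylase that trims tails before CCR4-NOT, the catalytic Pan2 had 3 probes between -0.082 and 0.13 without and between -0.0094 and 0.085 with mimic, and its partner Pan3 stood at 0.074 and -0.050. Among proteins that coat the tail, Pabpc1 stood at 0.074 and 0.013 by the probe that passed the detection filter. Pabpn1l, a nuclear-type poly(A) binding protein of oocytes, stood at -0.18 ± 0.137 and -0.12 ± 0.148. Parn and Pabpc1l were not analysed here.

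**Figure D5:**
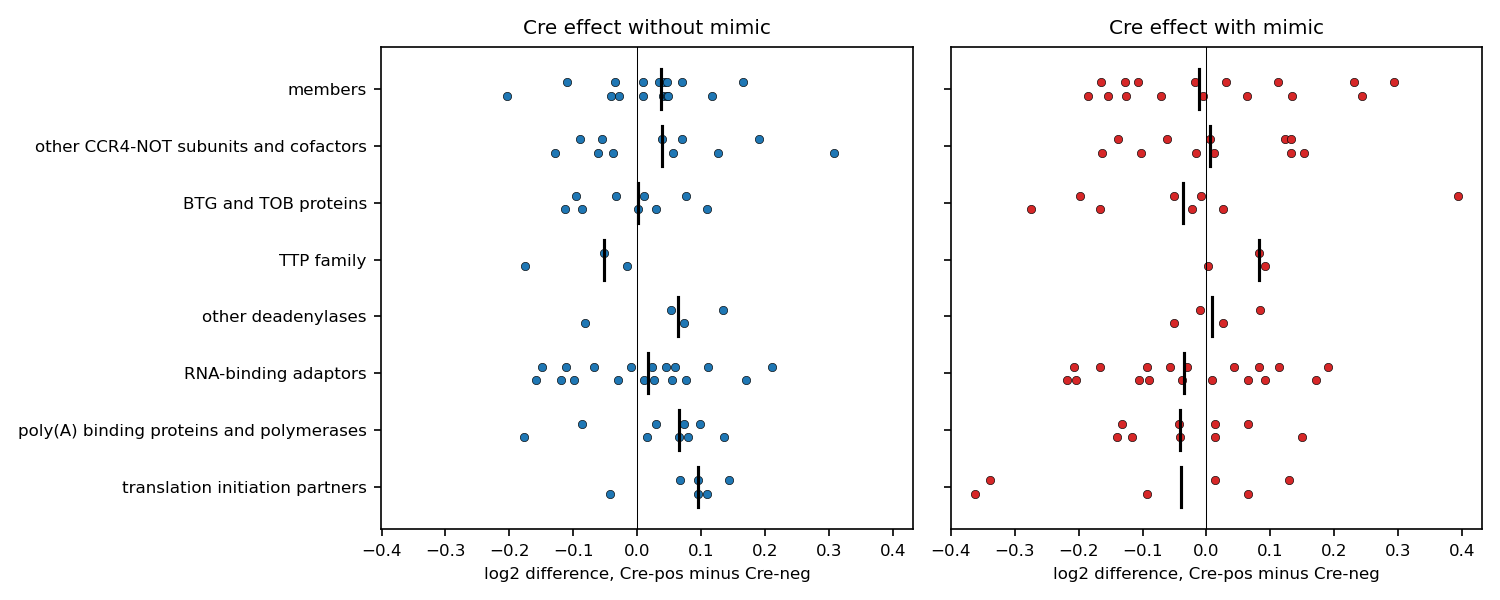
Log2 differences of Cre-positive minus Cre-negative oocytes for the member probes and for the tested probes of 7 lists of related genes (points), with the median of each list (bars), without mimic (left) and with mimic (right). No probe shown passed the test.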

How the data were processed

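Signal was measured on 14 one-colour arrays, labelled with biotin after Nugen amplification, per the labels' protocols. Per the file headers, the deposited raw tables pair each probe's intensity with its detection p-value on every array. In the authors' normalized tables the log2 values differed by at most 4.97e-14 from quantile-normalized log2 intensities of that set, with no background removed. The deposited series values differed from them by at most 5e-09. The scanner is not given in the sources used.

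Raw intensity was corrected with nec of limma 3.58.1 (R 4.3.3; negative controls inferred from detection p, offset 16), put on the log2 scale and quantile normalized, each set by itself. Symbols came from the platform annotation: 23978 probes had 1 symbol and 1719 several or none. The RefSeq gene table of GRCm38.p6 changed 0 symbols. A probe was tested when detected on at least 4 arrays without or 3 with mimic. Each probe was tested, because the members are defined as probes. Cre groups were contrasted by lmFit and eBayes of limma (two-sided), Benjamini-Hochberg adjusted over all tested probes, at 0.05. Intervals are 95% intervals from the same fit, and the number of arrays limits their precision. Mimic was not tested against no mimic. The scripts were first tested on simulated data.

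The members, lists and tests were chosen with earlier results of these data known. All probes of the members are given. Of the other pathway genes Cnot4, Cnot9, Cnot10, Cnot11, Tob1, Tob2, Pan2, Pan3, Parn, Pabpc1, Pabpc1l and Pabpn1l were always named, with any that passed. Ago2 served to check the Cre labels, and probes like Btg4 were the 3 with the highest Pearson r. The alternatives tried were blocking on replicate number, leaving background uncorrected, offsets of 1 and 50, median scaling, the deposited values, the probe filter, the brightest probe per gene, other eBayes settings, array weights, a shared spread and leaving out each array. Python 3.11.15 and scipy 1.17.1 gave the exact permutation test, and no raw arrays were identical.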

Additional observations from a re-analysis of the deposited data

Results flagged for a closer look

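Of the 32 groups of 4 arrays formed by the 16 probes without mimic, 2 held an array far from the other 3, where about 1 in 20 groups would by chance. Both were Cre_pos replicate 4, the array with the score of 28.2 on principal component 1. For Cnot2 ILMN_3067780 it gave a log2 signal of 7.706, above the next highest array at 7.473, and for Cnot3 ILMN_2987161 it gave 6.165, below the next lowest at 6.398. Without that array the Cre effect on the Cnot2 probe was -0.051 in place of 0.0096 and that on the Cnot3 probe 0.033 in place of -0.029, and neither passed.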

How the results depend on the processing

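No member probe passed under any of the alternatives run, and the smallest limma adjusted p among them was 0.539. Of 1029 alternative values of the 48 member results, 949 kept their sign and 80 changed it. Part of the 949 was fixed in advance. The replicate block, the probe filter, the brightest probe, other eBayes settings and a shared spread leave a log2 difference as it was. The deposited and series values repeat those without background correction. The count is therefore no measure of how stable the signs are. The largest of the results that changed sign had a main size of 0.13. The cause of the changes was not tested. With median scaling, values that changed sign for the Cre effect with mimic were 0.0020 (Cnot7 ILMN_2745540). With median scaling, values that changed sign for the Cre effect without mimic were -0.018 (Cnot2 ILMN_2729503), -0.080 (Cnot2 ILMN_3067780), -0.045 (Cnot2 ILMN_3145881), -0.044 (Cnot2 ILMN_3162796), -0.055 (Cnot3 ILMN_2626584), -0.0047 (Cnot6 ILMN_3034098), -0.031 (Cnot6l ILMN_2642671), -0.066 (Cnot7 ILMN_2745540), -0.033 (Btg4 ILMN_1248124). With median scaling, values that changed sign for the difference of the effects were 0.051 (Cnot2 ILMN_1241657), 0.031 (Cnot2 ILMN_2704360), 0.057 (Cnot2 ILMN_3067780), 0.068 (Cnot7 ILMN_2745540), 0.079 (Btg4 ILMN_1248124). With array weights, values that changed sign for the Cre effect with mimic were 0.024 (Cnot7 ILMN_2745540). With array weights, values that changed sign for the Cre effect without mimic were -0.026 (Cnot2 ILMN_3067780), -0.034 (Cnot2 ILMN_3145881), -0.034 (Cnot6 ILMN_3034098). With array weights, values that changed sign for the difference of the effects were 0.017 (Cnot2 ILMN_3067780), -0.040 (Cnot2 ILMN_3162796), 0.0063 (Cnot7 ILMN_2745540). Over all single arrays left out, the results without mimic that changed sign in at least 1 case ranged from -0.019 to 0.091 (Btg4 ILMN_1248124), from -0.051 to 0.038 (Cnot2 ILMN_3067780), from -0.056 to 0.12 (Cnot2 ILMN_3145881), from -0.053 to 0.13 (Cnot2 ILMN_3162796), from -0.13 to 0.020 (Cnot3 ILMN_2593425), from -0.055 to 0.11 (Cnot3 ILMN_2626584), from -0.053 to 0.033 (Cnot3 ILMN_2987161), from -0.053 to 0.15 (Cnot6 ILMN_3034098), from -0.0058 to 0.11 (Cnot6l ILMN_2642671), from -0.089 to 0.091 (Cnot7 ILMN_2745540). Over all single arrays left out, the results with mimic that changed sign in at least 1 case ranged from -0.047 to 0.15 (Btg4 ILMN_1248124), from -0.051 to 0.023 (Cnot2 ILMN_3067780), from -0.052 to 0.14 (Cnot2 ILMN_3162796), from -0.10 to 0.10 (Cnot7 ILMN_2745540). Over all single arrays left out, the results for the difference that changed sign in at least 1 case ranged from -0.088 to 0.11 (Btg4 ILMN_1248124), from -0.089 to 0.031 (Cnot2 ILMN_1241657), from -0.061 to 0.033 (Cnot2 ILMN_3067780), from -0.087 to 0.12 (Cnot2 ILMN_3162796), from -0.046 to 0.19 (Cnot6 ILMN_3034098), from -0.0094 to 0.12 (Cnot6l ILMN_2725466), from -0.11 to 0.091 (Cnot7 ILMN_2745540), from -0.11 to 0.31 (Cnot8 ILMN_1235663). 

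The number of probes called in the whole table moved more. Without mimic, 5 became 2 at an offset of 1 or with no filter on dim probes, and single arrays left out gave 4 to 7. With mimic, 16 became 30 without background correction and with the deposited or series values, 31 at an offset of 50, 10 at an offset of 1, 26 with median scaling, 38 with eBayes trend and robust settings and 52 with the spread shared by all 4 groups. Leaving out single arrays gave 2 to 17: 2 without miR15_Cre_neg replicate 1, and 8 without miR15_Cre_neg replicate 2 or 3 or miR15_Cre_pos replicate 1 or 2. In the difference of the effects, 0 became 4 without background correction, with the deposited or series values and with array weights, 7 at an offset of 50, 3 with median scaling, 1 with no filter and 2 with trend and robust settings; single arrays left out gave 0 to 6, with 1 without Cre_neg replicate 4 and 6 without miR15_Cre_pos replicate 3. With the replicate number as a block the counts were 5, 4 and 0. Deviations of arrays with the same number correlated at -0.072 to 0.19. The best match was its own number for 0 of 4 arrays without and 2 of 3 with mimic. With so few arrays, these values cannot settle whether the numbers pair the samples.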
